A study of Mus musculus with 18 samples.

Results

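The IL-1 system and the inflammasome were followed over neutrophil formation in the mouse through 9 genes: Il1b, Il1rn, Il1r2, Il1rap, Nlrp3, Pycard, Casp1, Casp4 and Gsdmd. They were picked by gene symbol from the 34896 genes of the expression table, all 9 were present, and all 9 passed the filter on low values. The study compared granulocyte-monocyte progenitors (GMPs), pre-neutrophils (preNeu) and mature neutrophils (matNeu), all sorted from the bone marrow of C57BL/6 mice aged 6 to 12 weeks. RNA-seq was done on wild type cells with 3 libraries for each of the 3 cell types, and the labels do not say whether these came from separate animals, so that p-values measure the spread between libraries only. ChIP-seq for the histone mark H3K4me2 had 1 library per cell type, all wild type. ChIP-seq for CHD4 had 1 library of wild type GMPs (WT) and 1 of Gfi1-/- GMPs, so that no difference between peak lists has a replicate check. GFI1 is a transcriptional repressor of myeloid cells, and CHD4 is the ATPase of the NuRD chromatin remodelling complex. GMPs were sorted as lineage-negative cKIT+ progenitors carrying CD16/32 and CD34, and the neutrophil stages as MAC-1+GR1+ cells separated by cKIT, CXCR4, SiglecF and CXCR2. Marrow from the leg and arm bones was pooled before the GMP sort.

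IL-1 beta is made as an inactive precursor that is cut by caspase-1 inside the inflammasome, a complex in which a sensor such as NLRP3 recruits caspase-1 through the adaptor ASC, the product of Pycard. Caspase-1, and caspase-11 encoded by mouse Casp4, also cut gasdermin D, whose fragment opens pores in the membrane. Outside the cell, IL-1 signals through the receptor IL1R1 with its accessory chain IL1RAP, whereas the antagonist IL1RN and the decoy receptor IL1R2 hold it back, and neutrophils are known to make both.

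Samples were grouped by their titles, because the cell type given in a second label differed from the title in 13 of 18 samples. In the RNA-seq libraries the marker genes went with the titles: the summed TPM (transcript abundance per gene length, scaled to the same total in every library) of the GMP markers was 32183 to 34085 in GMPs and 7.47 to 14.4 in matNeu cells, and that of the matNeu markers was 31515 to 35037 in matNeu cells and 722 to 845 in GMPs. For the peak lists no such check was available. The read depth behind TPM is unknown. Between 10754 and 12256 genes reached 1 TPM in a library, and libraries of the same cell type correlated at r of 0.974 or more over all genes. As these were bulk samples of equal total TPM, a lower value cannot tell fewer expressing cells from less RNA per cell.

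Before the values, the sequences that the chromatin results turn on are given, all from GRCm38. The strongest CHD4 peak of WT GMPs near Il1b lay past the 3' end of the gene and had no counterpart in Gfi1-/- GMPs, whereas those near Il1r2 and Nlrp3 did. For each, the bases around the summit are shown on the plus strand, followed by the promoters of Il1b and Il1r2 as given by RefSeq (GRCm38.p6), since no CHD4 peak overlapped either one although these genes rose most. Capitals mark matches on either strand to AAATCA, the core bound by GFI1, to GAGGAA, the core bound by the myeloid factor PU.1, or to the E-box CACGTG.
Il1b CHD4 site, chr2:129360222-129360422: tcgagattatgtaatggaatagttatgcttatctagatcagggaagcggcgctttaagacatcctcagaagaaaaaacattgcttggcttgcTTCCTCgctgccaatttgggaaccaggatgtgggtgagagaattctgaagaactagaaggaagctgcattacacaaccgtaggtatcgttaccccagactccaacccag
Il1r2 CHD4 site, chr1:40081115-40081315: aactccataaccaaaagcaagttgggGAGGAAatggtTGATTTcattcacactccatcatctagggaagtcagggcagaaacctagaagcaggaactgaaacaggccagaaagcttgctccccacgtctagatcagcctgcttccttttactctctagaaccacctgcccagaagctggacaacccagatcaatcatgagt
Nlrp3 CHD4 site, chr11:59542518-59542718: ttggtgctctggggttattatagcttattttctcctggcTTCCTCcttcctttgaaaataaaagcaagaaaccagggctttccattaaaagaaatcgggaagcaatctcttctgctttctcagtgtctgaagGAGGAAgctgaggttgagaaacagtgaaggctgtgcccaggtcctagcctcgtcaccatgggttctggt
Il1b promoter, chr2:129371090-129371389, minus strand: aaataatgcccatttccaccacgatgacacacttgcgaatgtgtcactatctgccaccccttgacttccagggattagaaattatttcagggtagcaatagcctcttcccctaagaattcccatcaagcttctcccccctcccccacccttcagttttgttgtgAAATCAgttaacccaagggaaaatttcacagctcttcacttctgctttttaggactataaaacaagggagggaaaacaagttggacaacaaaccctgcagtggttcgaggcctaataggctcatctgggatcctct
Il1r2 promoter, chr1:40085843-40086142, plus strand: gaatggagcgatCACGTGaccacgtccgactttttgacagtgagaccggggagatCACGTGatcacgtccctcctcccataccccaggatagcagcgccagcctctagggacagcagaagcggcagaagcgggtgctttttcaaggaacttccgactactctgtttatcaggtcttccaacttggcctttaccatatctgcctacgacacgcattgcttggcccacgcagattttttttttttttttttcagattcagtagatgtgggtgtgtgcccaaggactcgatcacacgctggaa
The GFI1 core stood once in the Il1r2 site and once in the Il1b promoter. The PU.1 core stood once in the Il1b site, once in the Il1r2 site and 2 times in the Nlrp3 site, and the E-box 2 times in the Il1r2 promoter. The strongest CHD4 sites near Il1rn and Il1rap, whose bases are not shown, held no match to any of these motifs. As a background, AAATCA was present in 12.1% of all 35726 CHD4 windows of this length and GAGGAA in 46.1%, and in 14.0% and 28.3% of the 32851 RefSeq promoters, 7.15% of which held CACGTG. Of the 30 CHD4 windows near the 9 genes, 10 held GAGGAA, 2 the longer GAGGAAGT and 2 AAATCA. TTGCNNAA (C/EBP factors) was found in 4, TGANTCA (AP-1) in 5 and GGANTTTCC (NF-kB) in 1. Of all CHD4 windows, 17.3%, 10.2% and 0.843% held these last 3 motifs and 11.8% held GAGGAAGT. The letters of the PU.1 core and the E-box were chosen after the sequences were seen. A match is a description of letters and not a bound site.

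**Figure D1:**
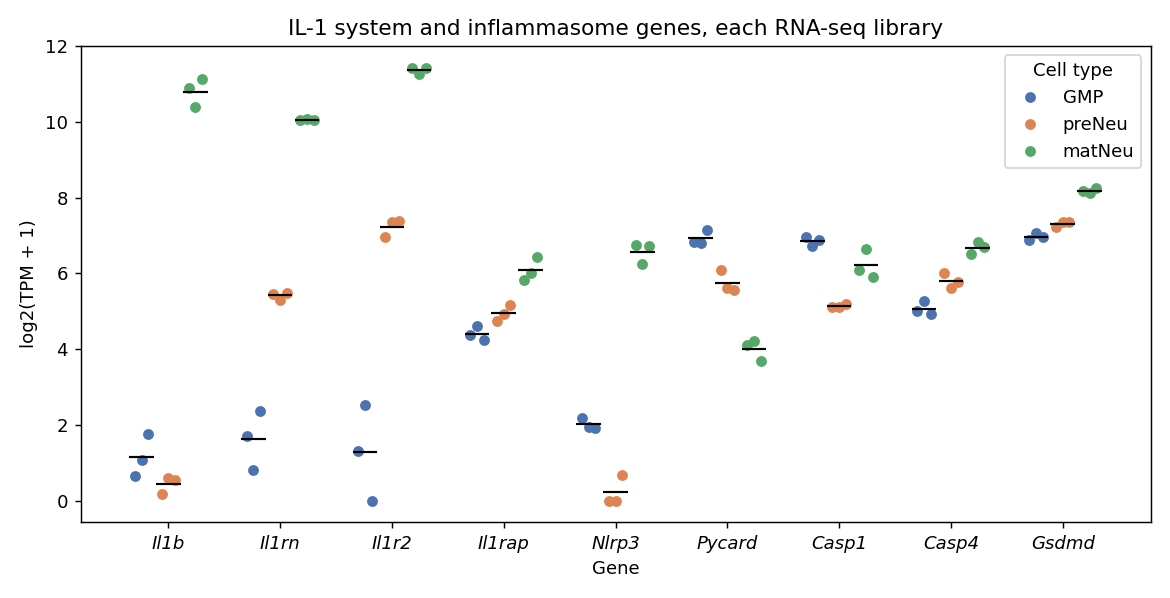
Level of each gene as log2(TPM + 1) in every RNA-seq library of GMPs, preNeu and matNeu cells (points, 3 libraries each), with the mean as a bar. Il1b, Il1rn, Il1r2 and Nlrp3 were high in matNeu cells, Pycard fell from GMPs to matNeu cells, and Casp1 was lowest in preNeu cells.

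The cytokine itself rose at the last step. Il1b, the gene of IL-1 beta, had 0.577, 1.10 and 2.36 TPM in GMPs, 0.119, 0.526 and 0.471 in preNeu cells and 1908, 1342 and 2237 in matNeu cells. Every matNeu library was thus far above every earlier one, and the GMP and preNeu libraries, which did not overlap, were both near the lower limit of the measurement. On the log2(TPM + 1) scale, which understates the change of low genes, matNeu exceeded preNeu by 10.36 ± 0.30 (SE) and GMPs by 9.65 ± 0.30 (limma, adjusted p = 1.24e-09 and 7.33e-10). The difference of -0.71 ± 0.30 between preNeu cells and GMPs did not pass the test (adjusted p = 0.0632), although it did without GMP replicate 1 (adjusted p = 0.0182).

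The receptor antagonist came earlier than the cytokine it opposes. Il1rn, which encodes it, had 2.29, 0.743 and 4.15 TPM in GMPs, 43.2, 38.6 and 43.8 in preNeu cells and 1054, 1075 and 1064 in matNeu cells. The 3 cell types did not overlap, and the libraries of each neutrophil stage lay close together. Il1rn rose by 3.79 ± 0.31 from GMPs to preNeu cells and by 4.64 ± 0.31 from preNeu to matNeu cells on the log2 scale (adjusted p = 3.55e-06 and 2.91e-07). The TPM of Il1rn over that of Il1b was 0.677 to 3.96 in GMPs, 73.3 to 362 in preNeu cells and 0.476 to 0.801 in matNeu cells, so that antagonist transcripts outnumbered cytokine transcripts in each preNeu library and were fewer in each matNeu library.

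The decoy receptor was the most abundant of the 9 transcripts in matNeu cells. Il1r2 had 1.50 and 4.80 TPM in 2 GMP libraries and was listed at 0 in the other, had 124, 164 and 165 in preNeu cells, and reached 2774, 2474 and 2774 in matNeu cells. It was among the 50 most abundant genes of every matNeu library. The rise was 5.95 ± 0.47 from GMPs to preNeu cells and 4.15 ± 0.47 from there to matNeu cells (adjusted p = 3.26e-06 and 2.00e-05), with no overlap between cell types.

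The accessory chain changed less. Il1rap, which completes the signalling receptor, had 19.7, 23.7 and 17.9 TPM in GMPs, 26.0, 29.4 and 35.1 in preNeu cells and 55.8, 63.2 and 85.6 in matNeu cells. The ranges did not overlap, but preNeu and GMP libraries were close: the difference of 0.54 ± 0.20 passed the test narrowly (adjusted p = 0.0382) and did not pass it without GMP replicate 1 (0.0864), without GMP replicate 3 (0.118), without preNeu replicate 2 (0.0757) or without preNeu replicate 3 (0.125). The further rise to matNeu cells was 1.14 ± 0.20 (adjusted p = 0.000492). Il1r1, the signalling receptor itself, was low throughout, at 1.63, 4.21 and 2.56 TPM in GMPs and 0.122, 0.0423 and 0.0656 in matNeu cells, a difference of -1.76 ± 0.39 (adjusted p = 0.00163) that did not pass under quantile normalization (-0.90, adjusted p = 0.0663).

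The inflammasome sensor followed the cytokine. Nlrp3 had 3.57, 2.85 and 2.79 TPM in GMPs, was listed at 0 in 2 preNeu libraries and at 0.611 in the other, and had 106, 75.1 and 105 in matNeu cells. The lowest values of all thus lay at the preNeu stage, as for Il1b. The difference between preNeu cells and GMPs was -1.79 ± 0.27 (adjusted p = 0.000245), a size that depends on the pseudocount because the preNeu values are at or near 0, and matNeu cells were higher than preNeu cells by 6.34 ± 0.27 (adjusted p = 1.28e-08).

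The adaptor ran the other way from the sensor. Pycard had 113, 110 and 141 TPM in GMPs, 67.4, 48.3 and 46.1 in preNeu cells and 16.4, 17.4 and 12.0 in matNeu cells. It fell at both steps without overlap, by 1.17 ± 0.20 and by 1.75 ± 0.20 on the log2 scale (adjusted p = 0.000536 and 1.98e-05), and it was the only one of the 9 genes lower in matNeu than in preNeu cells. In GMPs Pycard exceeded Nlrp3 in every library, and in matNeu cells Nlrp3 exceeded Pycard in every library.

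The 2 caspase genes, which lie next to each other on chromosome 9, took different courses. Casp1 had 124, 106 and 117 TPM in GMPs, 33.8, 33.4 and 35.7 in preNeu cells and 66.9, 99.8 and 58.6 in matNeu cells, with no overlap between cell types. It fell by 1.72 ± 0.19 into the preNeu stage and rose by 1.07 ± 0.19 afterwards (adjusted p = 2.41e-05 and 0.000445). Its lower level in matNeu cells than in GMPs (-0.65 ± 0.19, adjusted p = 0.00825) rests on the scaling of the libraries, for the difference turned to 0.18 under median-of-ratios scaling (adjusted p = 0.438) and to -0.10 under quantile normalization (adjusted p = 0.61). Casp4 had 31.0, 37.6 and 29.2 TPM in GMPs, 63.5, 48.0 and 53.5 in preNeu cells and 89.8, 112 and 102 in matNeu cells. It rose at both steps, by 0.74 ± 0.16 and by 0.87 ± 0.16 (adjusted p = 0.0026 and 0.000692). The TPM of Casp1 over that of Casp4 was 2.81 to 3.99 in GMPs, 0.533 to 0.695 in preNeu cells and 0.573 to 0.889 in matNeu cells, a shift from Casp1 to Casp4 that a library-wide scale factor cannot change, as both values come from the same library.

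The pore gene was high at every stage. Gsdmd, the gene of gasdermin D, had 116, 132 and 123 TPM in GMPs, 150, 163 and 164 in preNeu cells and 290, 280 and 303 in matNeu cells, again without overlap. The first step was small, 0.36 ± 0.10 (adjusted p = 0.0131, and 0.0544 without GMP replicate 1), and the second was 0.87 ± 0.10 (adjusted p = 2.93e-05).

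**Figure D2:**
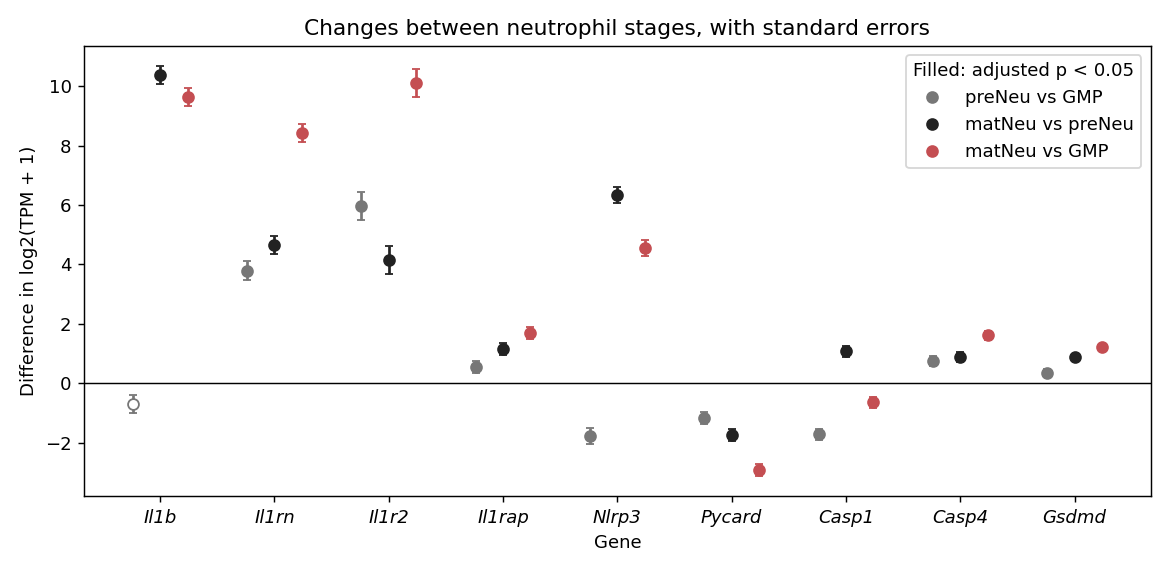
Difference in log2(TPM + 1) of each gene between cell types (points) with its standard error from limma (bars); filled points passed an adjusted p of 0.05. Il1b and Nlrp3 rose at the step from preNeu to matNeu cells, Il1rn and Il1r2 rose at both steps, and Pycard was below 0 in each comparison.

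Counted over the 9 genes, 5 rose, 3 fell and 1 did not pass the test from GMPs to preNeu cells, 7 rose and 2 fell from GMPs to matNeu cells, and 8 rose and 1 fell from preNeu to matNeu cells. These counts stand against broad change in all genes: of 13061 genes tested, 59.0% passed from GMPs to preNeu cells (14.7% higher and 44.3% lower), 76.9% from GMPs to matNeu cells (22.8% higher and 54.1% lower) and 62.8% from preNeu to matNeu cells (22.9% higher and 39.8% lower). A call on its own is therefore the common outcome, while a rise was the less common direction. The median log2 change was 0.36, 1.68 and 1.14 for the 9 genes and -0.52, -0.92 and -0.32 for all genes in the same order. The last 3 values are shifts that depend on scaling: higher genes were 25.0%, 29.6% and 36.5% of those called, and 41.7%, 45.0% and 48.5% under median-of-ratios scaling. Under quantile normalization they were 48.1%, 50.2% and 50.3%. Rescaled without the 10 most abundant genes, they were 35.4%, 31.0% and 31.3%. The comparisons share libraries and are not independent of each other.

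The order of the levels, per length as TPM gives them, changed with the stage. In GMPs Gsdmd, Pycard and Casp1 overlapped between 106 and 141 TPM, followed by Casp4 and then Il1rap, and the other 4 genes were under 5 TPM. In preNeu cells Gsdmd and Il1r2 overlapped at the top, and Il1b and Nlrp3 were at the bottom. In matNeu cells the order was Il1r2, Il1b, Il1rn and Gsdmd, none of which overlapped with its neighbour. Casp4, Nlrp3, Casp1 and Il1rap followed with overlapping ranges between 55.8 and 112 TPM, and Pycard was last.

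Markers of other conditions were measured beside these changes. Of 10 immediate early and handling response genes, which also respond to cell isolation, 9 were higher in matNeu cells than in GMPs and none was lower. Their summed level was 434 to 525 TPM in GMPs, 732 to 784 in preNeu cells and 8880 to 16014 in matNeu cells. The sums of matNeu replicates 1, 2 and 3 were 9628, 8880 and 16014, and their Il1b and Gsdmd values stood in the same order. The values of the remaining genes, Nlrp3 among them, stood in other orders. An order of so few libraries is a description only. Of 13 monocyte and macrophage markers, 4 were higher and 6 lower in matNeu cells than in GMPs, and the summed level was 1990 to 2383 TPM in GMPs, 135 to 192 in preNeu cells and 363 to 511 in matNeu cells. The 4 that rose were Adgre1, which encodes the macrophage antigen F4/80, and the complement genes C1qa, C1qb and C1qc. Adgre1 went from 10.7 to 14.9 TPM in GMPs to 75.7 to 97.0 in matNeu cells (2.67 ± 0.24, adjusted p = 1.74e-06), and the C1q genes rose by 1.62 to 1.77 (adjusted p = 0.000456 to 0.00943) to between 2.35 and 11.9 TPM. The C1q genes were highest in preNeu cells, at 22.7 to 42.0 TPM. Csf1r made up most of the matNeu sum, at 253 to 350 TPM, and its difference from GMPs did not pass the test (adjusted p = 0.0948), whereas Csf1r rose from preNeu to matNeu cells by 4.47 ± 0.29 (adjusted p = 2.37e-07) and Adgre1 by 2.81 ± 0.24 (2.21e-06), the same step at which Il1b and Nlrp3 rose. Among those that fell, Ccr2 was 0.269 to 0.891 TPM and Ly86 2.77 to 4.14 in matNeu cells. Of 5 dendritic cell markers tested 4 were higher in matNeu cells than in GMPs and 1 lower, and the sum was 33.2 to 48.4 TPM in GMPs, 150 to 196 in preNeu cells and 116 to 202 in matNeu cells. Of 5 B cell markers tested 4 were higher and 1 lower, while the sums overlapped, at 79.4 to 94.5 TPM in GMPs and 61.2 to 133 in matNeu cells. The sums of the T and NK cell markers (461 to 613 TPM in GMPs and 10.2 to 16.0 in matNeu cells), of the erythroid and platelet markers (36.7 to 54.8 and 5.66 to 10.2) and of the basophil, mast cell and eosinophil markers (1202 to 1474 and 1.73 to 6.90) were lower in matNeu cells. Of 2 T and NK cell markers tested 1 was higher and 1 lower. Nkg7, at 457 to 610 TPM in GMPs, made up most of that GMP sum and fell. Cd3d rose from between 2.34 and 3.29 TPM to between 6.57 and 14.1 (1.45 ± 0.36, adjusted p = 0.00336). The part of these markers in the results was not tested.

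The wider pathway was described with 55 further genes in 6 lists, of which 46 passed the filter on low values. From GMPs to preNeu cells 13 rose and 16 fell, from GMPs to matNeu cells 18 rose and 21 fell, and from preNeu to matNeu cells 19 rose and 14 fell. Under median-of-ratios scaling these became 17 and 12, 23 and 16, and 23 and 12. Quantile normalization gave 17 and 13, 25 and 12, and 21 and 9. Rescaling without the 10 most abundant genes gave 16 and 14, 19 and 21, and 18 and 17. The balance of directions thus depends on the scaling chosen. The named genes below kept their sign from GMPs to matNeu cells under each of the 3 other scalings.

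Among 8 ligands and antagonists 2 passed the filter and both rose in each comparison. Il1f9, which encodes IL-36 gamma, matched Il1b in level: it had 0.962, 3.49 and 2.32 TPM in GMPs, 29.2, 33.7 and 41.1 in preNeu cells and 2063, 2536 and 2110 in matNeu cells, a rise of 9.50 ± 0.27 from the first to the last (adjusted p = 4.00e-10). Unlike Il1b, it was already above the GMP libraries at the preNeu stage, by 3.52 ± 0.27 (adjusted p = 2.28e-06). Il18, another substrate of caspase-1, reached 19.6, 32.1 and 21.4 TPM in matNeu cells, 3.64 ± 0.47 above GMPs (adjusted p = 2.95e-05). Il1a, which encodes IL-1 alpha, was not tested because fewer than 3 libraries reached 1 TPM. Its highest value was 3.48 TPM.

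Of 7 receptors and the IL-18 binding protein, 3 were higher, 3 were lower and 1 did not pass between matNeu cells and GMPs. Il18bp, the soluble inhibitor of IL-18, rose by 4.42 ± 0.23 to between 86.0 and 98.1 TPM (adjusted p = 2.43e-08). Sigirr, an inhibitory receptor of the family, fell by 5.42 ± 0.35, from between 59.8 and 67.6 TPM in GMPs to between 0 and 1.75 (adjusted p = 1.23e-07). Of 12 signalling genes 6 rose and 4 fell. Myd88, the adaptor of IL-1 and Toll-like receptors, rose by 2.39 ± 0.12 to between 416 and 462 TPM (adjusted p = 1.26e-08), and Peli1, an E3 ubiquitin ligase of the same pathway, rose by 2.22 ± 0.18 to between 75.9 and 96.1 TPM (adjusted p = 8.59e-07).

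Among the other inflammasome sensors 9 of 11 were tested, and 2 rose and 5 fell from GMPs to matNeu cells. Nlrp12 rose by 6.96 ± 0.20, from between 0.773 and 1.02 TPM to between 210 and 259 (adjusted p = 5.25e-10), which put it above Nlrp3 in each matNeu library. Nlrc4, whose product responds to bacterial flagellin and secretion systems together with NAIP proteins, fell by 3.14 ± 0.35 to between 0.0675 and 0.899 TPM (adjusted p = 9.41e-06). Of 13 tested licensing, caspase and pore genes 5 rose and 6 fell. Txnip, which encodes an NLRP3-binding protein, rose by 3.70 ± 0.17 to between 708 and 1092 TPM (adjusted p = 8.47e-09), and Gbp3, a guanylate-binding protein gene, fell by 4.25 ± 0.55 (adjusted p = 2.98e-05), from 113 to 120 TPM to between 3.35 and 8.55. In preNeu cells Gbp3 had 0.613 to 7.79 TPM, which overlapped the matNeu libraries, and the difference between these stages did not pass the test (1.02 ± 0.55, adjusted p = 0.128). The values of Naip, Nlrp1 and Gbp genes are uncertain where reads are shared between near copies.

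The 3 neutrophil serine protease genes, whose products can also cut IL-1 family cytokines, all fell from GMPs to matNeu cells. Elane, the gene of neutrophil elastase, had 6173 to 8308 TPM in GMPs, 2332 to 3088 in preNeu cells and 0.194 to 9.07 in matNeu cells, and fell by 11.31 ± 0.59 over the series (adjusted p = 2.32e-08). Ctsg fell by 10.76 ± 0.40 (adjusted p = 1.98e-09). The transcripts of these proteases and of Il1b were thus high at opposite ends of the series.

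Over the 9 libraries, genes whose log2(TPM + 1) ran closely with Il1b included Gpr137b-ps (Pearson r = 0.9977) and H2-Q10 (0.9977), of which Gpr137b-ps is a pseudogene and H2-Q10 one of a family of near copies, so that their values are uncertain. The closest to Il1rn was Fam129a (0.997), to Il1r2 Prickle3 (0.996), to Il1rap Tsc22d4 (0.988) and to Nlrp3 Themis2 (0.998). For Pycard it was Asrgl1 (0.996), for Casp1 Eif5 (0.978), for Casp4 Flot1 (0.990) and for Gsdmd Pbxip1 (0.998). As 9 libraries of 3 cell types form 3 clusters, values near 1 are reached easily, and they are given as a description.

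The peak lists were read against the gene models. In GRCm38 (GENCODE M21) Il1b lies on the minus strand at chr2:129364570-129371139, Il1rn at chr2:24336853-24351494, Il1r2 at chr1:40074079-40125231 and Nlrp3 at chr11:59541568-59566956, these last 3 on the plus strand. Casp1 and Casp4 are neighbours on the plus strand at chr9:5298517-5307265 and chr9:5308828-5336783. CHD4 peaks lay near 8 of the 9 genes in WT GMPs, that is within the gene or 10 kb of it, against 43.3% of 11843 expressed coding genes. Because longer genes have larger windows (24.2 kb for Pycard and 168 kb for Il1rap) the 2 shares are not directly comparable. There were 30 distinct peaks: 3 near Il1b, 3 near Il1rn, 8 near Il1r2, 7 near Il1rap, 4 near Nlrp3, 1 near Pycard, 4 near Casp1 of which 3 were also within reach of Casp4, and none called near Gsdmd. At 6 of the 9 genes a peak summit stood within 500 bp of an annotated start of a coding transcript, namely Il1rn, Il1rap, Nlrp3, Pycard, Casp1 and Casp4. The share of all expressed coding genes with such a summit was not counted, so that this count is a description and no result about these genes. At Il1b and Il1r2, the genes with the largest rise, the nearest summits stood at -2463 bp and 1734 bp from a start site (negative is upstream).

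In Gfi1-/- GMPs 4 peaks remained near these genes, 1 each at Il1rn, Il1r2, Il1rap and Nlrp3, and each overlapped the strongest WT peak of its gene. At Il1r2 (chromosome 1, 40080985 to 40081425, in an intron of the annotated gene, its summit at -3483 bp from a coding start) the fold enrichment over background was 24.9 in WT and 7.39 in Gfi1-/- GMPs. At Il1rap (chromosome 16, 26691307 to 26691800, in an intron) it was 23.9 and 4.99. At Nlrp3 (chromosome 11, 59542314 to 59543046, at the promoter) it was 14.8 and 4.06, and at Il1rn (chromosome 2, 24345094 to 24345493, at the promoter of the downstream start sites) it was 11.8 and 4.99. The strongest peak near Il1b (chromosome 2, 129360142 to 129360652, 10817 bp downstream of its start) had a WT fold enrichment of 15.5 and no Gfi1-/- peak. Fold enrichments were computed by the authors within each library and were not scaled between them.

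The 4 overlapped peaks are 13.3% of the 30, and all of the 4 Gfi1-/- peaks. In the whole lists 18.5% of 35790 WT peaks were overlapped, and 99.0% of 7316 Gfi1-/- peaks overlapped a WT peak, so that the share near these genes lay near that of the whole list and is no result about them. Strength goes with being overlapped: when all WT peaks were ranked by fold enrichment into 10 equal groups, 92.9% of the strongest group, which held the Il1r2 and Il1rap peaks, had a Gfi1-/- peak. In the next group, which held the Il1b and Nlrp3 peaks, it was 49.9%, and in that of the Il1rn peak 20.7%. Of all expressed coding genes, 14.3% had a Gfi1-/- peak within 10 kb. Only 1 library of each genotype was made, and the lists differ greatly in length, so that the genotype and the quality of the library cannot be told apart.

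**Figure D3:**
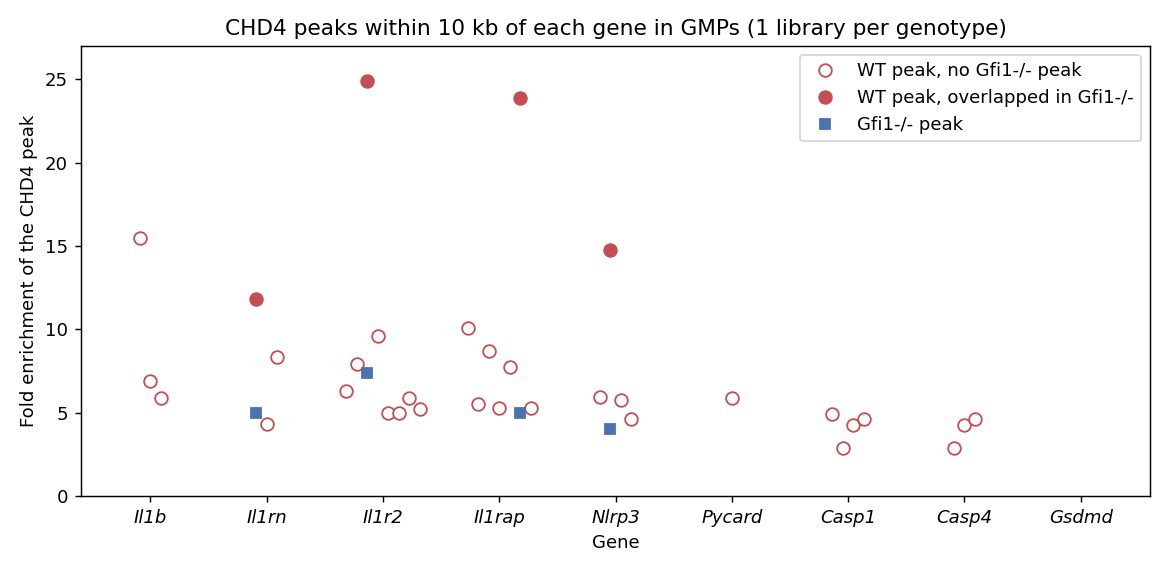
Fold enrichment of each CHD4 peak within 10 kb of each gene in WT GMPs (circles) and Gfi1-/- GMPs (squares), 1 library each. Filled circles are WT peaks overlapped by a Gfi1-/- peak; these were the strongest of Il1rn, Il1r2, Il1rap and Nlrp3, while the Il1b peak at 15.5 had no counterpart and Gsdmd had no peak.

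H3K4me2, a mark of active and poised promoters and enhancers, was called at the starts of most of these genes already in GMPs. A peak within 500 bp of a start site was called for 8 of 9 genes in GMPs and for all 9 in preNeu and in matNeu cells, against 90.7%, 92.7% and 91.7% of expressed coding genes. The exception in GMPs was Il1b. With the stricter limit of a −log10 q-value of 5 the count in GMPs was 3. The share of expressed coding genes at that limit was not counted, so that this count is no result about these genes. The Il1b peak at the start in preNeu cells, at 3.56, also fell below that limit. The GMP list had the weakest peaks, with a median fold enrichment of 2.89 against 4.55 in preNeu and 3.78 in matNeu cells. The mark at the GMP stage is therefore measured less firmly.

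At Il1b the called mark differed between the stages, with 1 library each. In GMPs the peaks nearest to the start were in an intron (189 bp wide, 5548 bp into the gene) and past its 3' end. In preNeu cells, where Il1b was under 1 TPM, a peak of 2017 bp covered the start (129369998 to 129372014, fold enrichment 3.43), and in matNeu cells a peak of 7608 bp covered it (129366524 to 129374131, fold enrichment 4.24). The share of the gene and 10 kb on either side that lay inside peaks was 7.04%, 22.3% and 38.7% in GMP, preNeu and matNeu cells.

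At Nlrp3 the mark over the start had about the same width in GMPs and preNeu cells, 3411 bp and 2914 bp, and was 7037 bp wide in matNeu cells, where 3 further peaks were called in the window. The share covered was 8.23%, 6.42% and 25.2%. Il1r2 and Il1rn, which rose already in preNeu cells, had their wide peaks from that stage on. At Il1r2 a peak of 728 bp lay at the start in GMPs (40085272 to 40085999), with separate peaks of 172, 1295 and 1728 bp nearby. All of these lay within the span of a single peak of 10411 bp in preNeu and of 9461 bp in matNeu cells. The share of the Il1r2 window covered was 7.24%, 16.5% and 15.5% in GMP, preNeu and matNeu cells. At Il1rn the peak over the downstream starts was 831 bp, 4623 bp and 4944 bp wide.

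**Figure D4:**
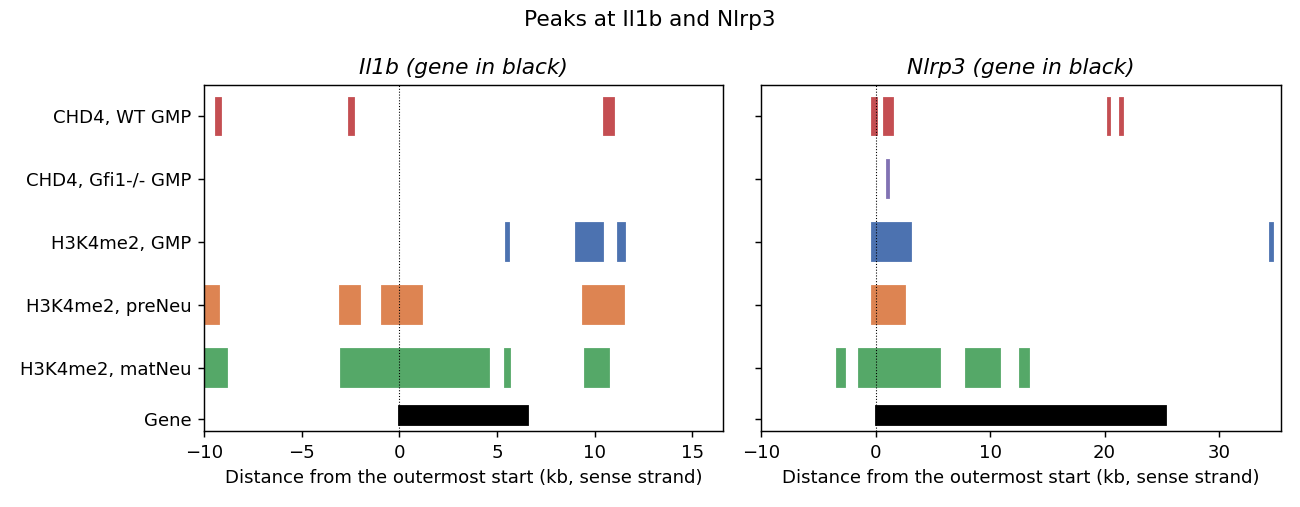
Called peaks of CHD4 (WT and Gfi1-/- GMPs) and of H3K4me2 (GMP, preNeu and matNeu) at Il1b and Nlrp3, by distance from the outermost start of the gene in kb along its sense strand, with the gene as a black bar. H3K4me2 covered the Il1b start in preNeu cells, by a peak with a −log10 q-value of 3.56, and in matNeu cells. It was widest in matNeu cells, at 7608 bp over Il1b and 7037 bp over Nlrp3.

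The other genes carried the mark in every stage, whether their RNA rose or fell. Pycard, which fell, had 8.57%, 19.9% and 19.1% of its window covered. Casp1 had 12.5%, 23.3% and 25.0%, and Casp4, whose window overlaps it, had 6.11% in GMPs and 15.0% in matNeu cells, with preNeu cells between them. Gsdmd had 14.6%, 31.1% and 21.5%, and Il1rap 1.89%, 11.2% and 7.19%. The median of the 9 genes was 7.24% in GMPs, 17.5% in preNeu and 19.1% in matNeu cells, against 7.28%, 12.8% and 10.1% for 11843 expressed coding genes and 3.83%, 6.43% and 4.81% for all 21938 coding genes. As the median of all expressed genes was also lowest in GMPs, the lower cover there was not particular to these genes. Of the 30 WT CHD4 peaks near these genes, 13 overlapped an H3K4me2 peak of GMPs, 24 one of preNeu cells and 23 one of matNeu cells. The whole H3K4me2 lists covered 49.8, 97.9 and 80.4 Mb in the same order. The share over all WT CHD4 peaks was not counted, so that these counts are no result about the 9 genes.

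**Figure D5:**
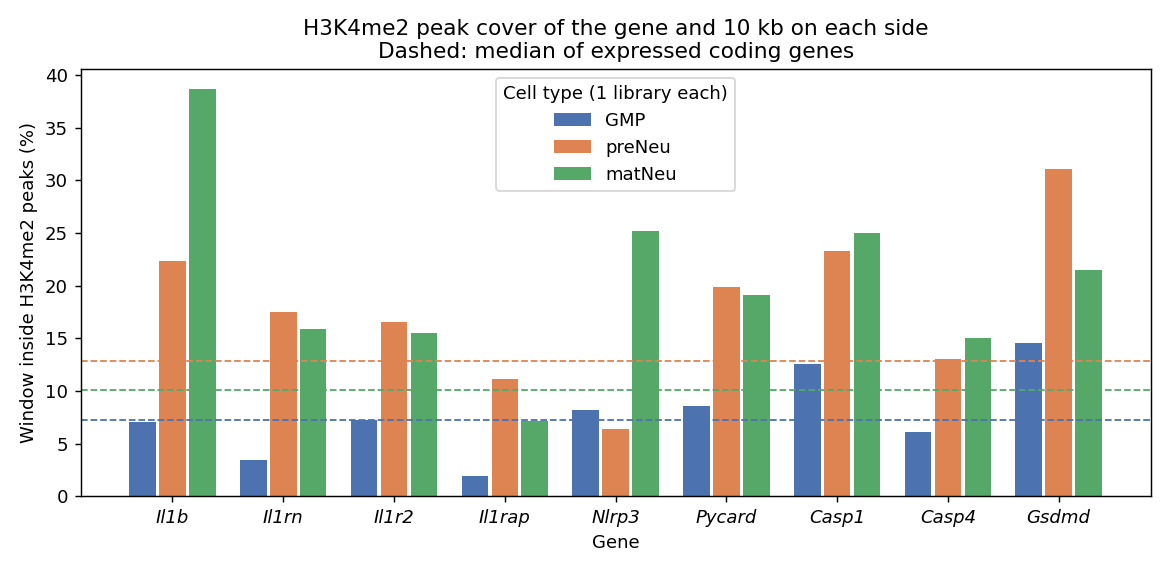
Percent of each gene and 10 kb on either side inside called H3K4me2 peaks in GMP, preNeu and matNeu cells (bars, 1 library each), with the median of expressed coding genes as dashed lines. Il1b and Nlrp3 were highest in matNeu cells, at 38.7% and 25.2%, and Gsdmd was highest in preNeu cells.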

How the data were processed

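RNA-seq libraries were made with a TruSeq Stranded mRNA kit. The authors deposited gene expression as TPM, which keeps no depth, although the methods describe HTSeq counts tested with DESeq, so that limma was used in place of a count test. They also deposited peak lists with the fold enrichment over background, a linear ratio, and the −log10 q-value of each peak. The submitters' processing notes name mm10, Trimmomatic 0.36, BWA 0.7.17, MACS2 2.1.0 and kallisto 0.44.0. The score column was not used, and no value column of the expression table was left unmapped (0 columns).

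Here limma 3.58.1 (R 4.3.3) was fitted to log2(TPM + 1) of all 9 libraries, modelling cell type alone with a variance trend. Genes had to reach 1 TPM in 3 or more libraries, with Benjamini-Hochberg adjustment over 13061 genes and a threshold of 0.05. The fit was tested on simulated data in which few genes changed, so that this test does not cover the broad change seen here. Peaks were read with Python 3.11.15 and pandas 2.3.3, placed on GENCODE M21 genes of GRCm38, and counted within 10 kb of a gene; an overlap was 1 bp or more. Every start of a coding transcript counted as a start site, a choice made after the peaks were seen. The GFI1 and H3K4me3 lists ran past the ends of GRCm38 chromosomes and were not used. Both ATAC-seq lists were identical in all 16307 peaks and were used as 1 list. The lists of pathway genes and markers, the 9 genes and the rule for genes named (all 9; per pathway list the 2 largest called changes between matNeu cells and GMPs; Il1a, Il1r1, Il18, Nlrc4, Nlrp12 and Elane; the closest profiles) were chosen with earlier results of these data known. One result that this rule names is not reported here.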

Additional observations from a re-analysis of the deposited data

How the results depend on the processing

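Of 27 changes (9 genes in 3 comparisons), 20 kept their direction and call at each of 19 other settings of pseudocount, filter, scaling, fit and libraries left out. The exceptions were Il1b, Il1rap, Casp4 and Gsdmd from GMPs to preNeu cells, Casp1 from GMPs to matNeu cells, and Casp4 and Gsdmd from preNeu to matNeu cells. Casp1 turned from -0.65 to 0.18 under median-of-ratios scaling. The cause was not tested. A minimum absolute log2 change of 1 left 5 of the 8 genes called from GMPs to preNeu cells, since Il1rap, Casp4 and Gsdmd moved less, and by construction ended the Casp4 and Gsdmd calls from preNeu to matNeu cells and the Casp1 call from GMPs to matNeu cells too. Il1rap also lost its call from GMPs to preNeu cells with no filter on low TPM (adjusted p = 0.057) and with no variance trend (0.0535), and Gsdmd with no variance trend (0.0586), while Il1b gained one with a pseudocount of 0.1 (0.0313). With replicate numbers as a block, which the labels do not tie to shared animals and whose same-numbered libraries did not all deviate together, the replicate block gave 9, 9 and 9 genes called in place of 8, 9 and 9 (Il1b from GMPs to preNeu cells, adjusted p = 0.0423), and 30, 40 and 32 of the pathway genes in place of 29, 39 and 33. A window of 50 kb gave 57 CHD4 peaks, of which 10 were overlapped in Gfi1-/- GMPs. Peaks of a −log10 q-value of at least 5 left 3 genes with H3K4me2 at a start in GMPs and a median cover of 0 there. The values of all expressed coding genes at that limit were not counted. Counting the outermost gene start alone, an alternative chosen after seeing the data, gave 6, 7 and 7 genes in place of 8, 9 and 9. The depth of the libraries and of the peak lists is unknown, with 1 library for each ChIP.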

Other observations

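The ATAC-seq list given for both preNeu and matNeu cells held open sites near 7 of the 9 genes and was not used in a comparison, since the same 16307 peaks stand under both cell types. Near Il1b it had a peak centred at -2381 bp from the start (fold enrichment 5.33) that overlapped a CHD4 peak of WT GMPs, and near Nlrp3 a peak at the start (4.49) that overlapped the CHD4 peak present in both genotypes. Near Il1r2 it had a peak of 1504 bp over the start (5.54) and 2 within the gene. No peak was listed near Il1rn or Pycard, although Il1rn was at 1054 to 1075 TPM in matNeu cells. Of the 30 CHD4 peaks 6 overlapped an open site of this list. The shares over all expressed genes and over all CHD4 peaks were not counted for this list. Its counts are therefore a description and no result about the 9 genes.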
